A study of Homo sapiens with 6 samples.

Results

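The BCL2 family decides whether the outer membrane of the mitochondrion stays intact, and with it whether a cell enters apoptosis. A set of 10 of its genes, chosen by symbol, is described here: the survival members BCL2, BCL2L1 and MCL1, the effectors BAX and BAK1, and the BH3-only members BID, BAD, BBC3, PMAIP1 and BCL2L11. Each of the 10 symbols matched 1 row among the 61280 gene rows of the deposited table, with no repeated symbol. The cells were MDA-MB-231, an established human line of triple-negative breast cancer. The irradiated group (3 libraries) was taken 24 h after a dose of 20 Gy of X-rays, and the control group (3 libraries) was the same line without treatment. How long control cells were cultured is not stated, and an effect of culture time and one of irradiation cannot be told apart. Values are TPM, which state how much of a library a gene takes up per unit of its length, and the read depth behind a value is unknown. Whether replicates were grown separately is not stated, and the p-values therefore reflect how far these libraries scatter, which may be technical scatter. In gene levels of a bulk culture, fewer cells of a kind and less RNA per cell cannot be told apart, nor can the splice forms of BCL2L1, MCL1 or BCL2L11, some of which act in opposite directions.

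As background, the survival proteins bind and restrain the others through a groove on their surface. BAX and BAK1 form pores in the outer mitochondrial membrane that release cytochrome c, after which the apoptosome forms and caspases are activated. BH3-only proteins carry the signal from damage, lost growth factors or death receptors: they occupy the groove of the survival proteins, and some also activate BAX and BAK1 directly. BBC3 encodes the protein PUMA and PMAIP1 the protein NOXA.

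The feature the 10 products share is the BH3 helix. In the effectors and BH3-only members this stretch enters the groove of a survival protein. The coding DNA of the helix core is shown for all 10 because the whole network turns on this contact. Each line holds 30 bases of a principal GENCODE 29 transcript, 5′ to 3′ on the coding strand; the capitals mark the codon of the conserved leucine and, after 3 free codons, those of a small residue (glycine, alanine or serine) and of the conserved aspartate.
BCL2: ctgaccCTCcgccaggccGGCGACgacttc
BCL2L1: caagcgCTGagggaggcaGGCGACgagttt
MCL1: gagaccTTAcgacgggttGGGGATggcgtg
BAX: gagtgtCTCaagcgcatcGGGGACgaactg
BAK1: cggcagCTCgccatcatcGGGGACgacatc
BID: aggcacCTCgcccaggtcGGGGACagcatg
BAD: cgcgagCTCcggaggatgAGTGACgagttt
BBC3: gcccagCTGcggcggatgGCGGACgacctc
PMAIP1: actcaaCTCaggagatttGGAGACaaactg
BCL2L11: caagagTTGcggcgtattGGAGACgagttt
The small residue was coded as glycine in all members other than BAD (serine) and BBC3 (alanine). The pattern by itself is common: 35.0% of 19509 coding genes scanned held it somewhere, and in BID, where it occurred more than once, the copy most like those of the other members was taken. In hg38 coordinates the stretch of BID lies at chr22:17739421-17739450 and that of BCL2L1 at chr20:31721928-31721957, each within a single coding exon on the minus strand. The stretches of BAD and BCL2L11 shared 21 of 30 bases, as did those of BAK1 and BID, the most of any pair.

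Across the series, 14621 gene rows reached 1 TPM in at least 3 of the 6 libraries and were tested with limma on log2(TPM + 1), with Benjamini-Hochberg adjustment over all of them and a threshold of 0.05. All differences below are irradiated minus control on that scale, which understates changes of genes near 1 TPM. Intervals of the fold come from the same scale and are folds of TPM + 1, not of TPM. Of these rows, 955 were higher and 595 lower, and 778 higher and 852 lower after median-ratio scaling. Cell identity was checked with fixed markers. All 5 mesenchymal markers, VIM among them, were present, with a summed level of 5826 to 6131 TPM in irradiated libraries and 6072 to 6448 TPM in control libraries. Within this list VIM fell by 0.31 and AXL by 0.36 (limma adjusted p = 0.00479 and 0.00921), and CD44, MSN and LGALS1 were not called. PGR was listed at 0 in every library and ESR1 and CDH1 stayed under 1 TPM, whereas ERBB2, GATA3 and EPCAM were above 1 TPM in every library. Among leukocyte markers, CD3E and CD14 stayed under 1 TPM, but PTPRC was at 40.4 TPM in irradiated replicate 1, against at most 0.45 TPM in the other libraries. Fibroblast and endothelial markers summed to at most 13.6 and 1.64 TPM in irradiated libraries, against 10.0 and 1.49 TPM in control libraries. Most of the fibroblast sum was COL1A1, at 8.99 to 13.19 TPM in irradiated and 6.69 to 9.75 TPM in control libraries. COL3A1, PDGFRA and DCN stayed under 1 TPM. Irradiated replicate 2 had lower values for long transcripts. Among tested genes with a longest transcript of at least 5110 bases, its median deviation from the mean of the irradiated libraries was -0.16 on the log2(TPM + 1) scale, against 0.07 and 0.09 in irradiated replicates 1 and 3 and -0.01 to 0.02 in the control libraries.

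All 10 members passed the filter on low values, and they fell into 3 tiers of abundance. BCL2L1, BAD, BAX and MCL1 were the most abundant, with group means of 86.6 to 152 TPM in irradiated cells and 98.2 to 172 TPM in control cells. BID, PMAIP1 and BAK1 averaged 25.4 to 40.3 TPM in irradiated cells and 23.3 to 33.4 TPM in control cells. BCL2L11, BBC3 and BCL2 averaged 1.48 to 3.75 TPM in irradiated cells and 2.15 to 4.59 TPM in control cells, with BCL2, which gave the family its name, the least abundant of the 10. In irradiated cells only BCL2L1 and BAD, the first and second in this order, had overlapping ranges between neighbours. In control cells the ranges of BAX and MCL1 overlapped, as did those of BID and PMAIP1.

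**Figure D1:**
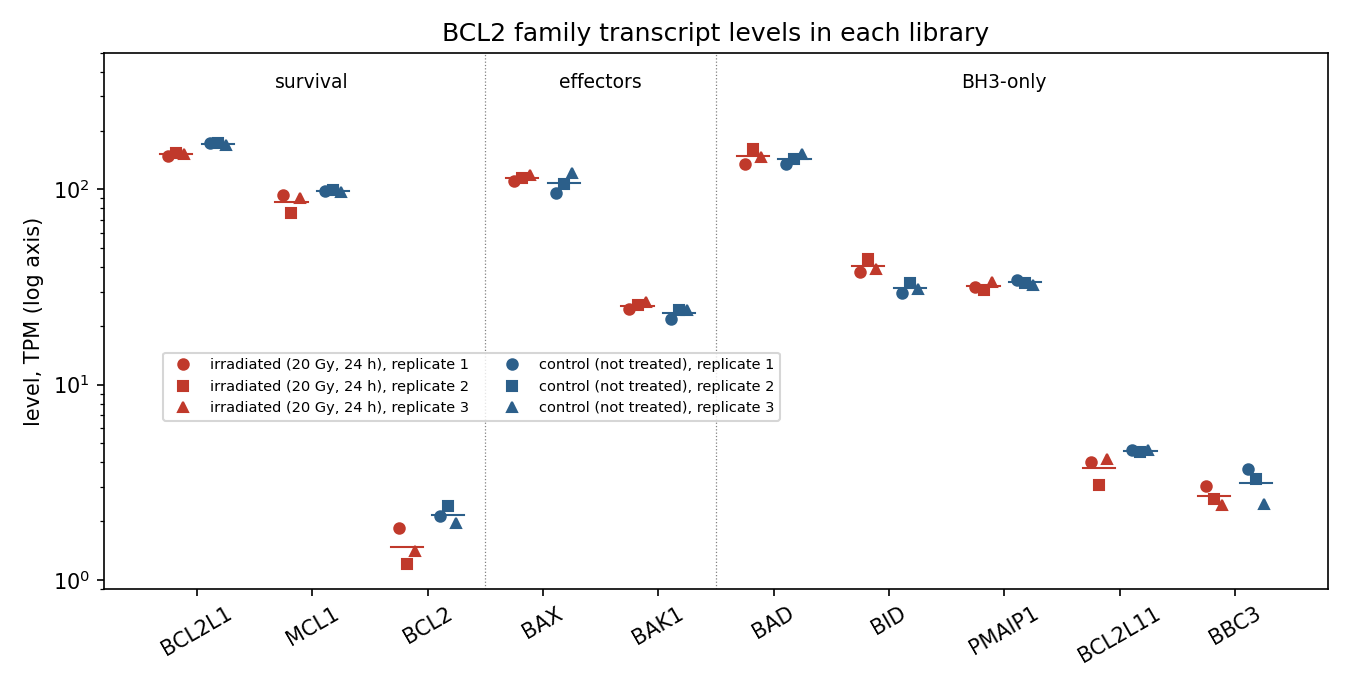
Transcript level (TPM, log axis) of the 10 BCL2 family members in each of 3 irradiated and 3 control libraries; symbols mark the replicate and short lines the group mean. The irradiated values of BID lie at 37.98 to 43.8 TPM, above the control values of 29.64 to 32.98 TPM, and those of BCL2L1 at 149.1 to 154.38 TPM, below the control values of 169.25 to 172.91 TPM.

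Irradiation was followed by a higher BID transcript and a lower BCL2L1 transcript, while the other 8 members did not pass the test. These 2 calls are 20.0% of the members, against 10.6% of all tested rows called (6.53% higher and 4.07% lower), and with so few members nothing is read from the gap. At an unadjusted p under 0.05 there were 3 members, against 28.0% of all tested rows, close to that background. The groups did not overlap for 6 of 10 members. Of these, 2 were higher (BID and BAK1), where 20.4% of all tested rows were, and 4 were lower (BCL2L1, MCL1, BCL2 and BCL2L11), where 14.5% were. In either direction 34.9% of all tested rows did not overlap. The exact two-sided permutation test gave p = 0.1 for each of these 6, the smallest value that 3 against 3 libraries allow. The median difference of the 10 members was -0.11, against 0.03 for all tested rows.

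**Figure D2:**
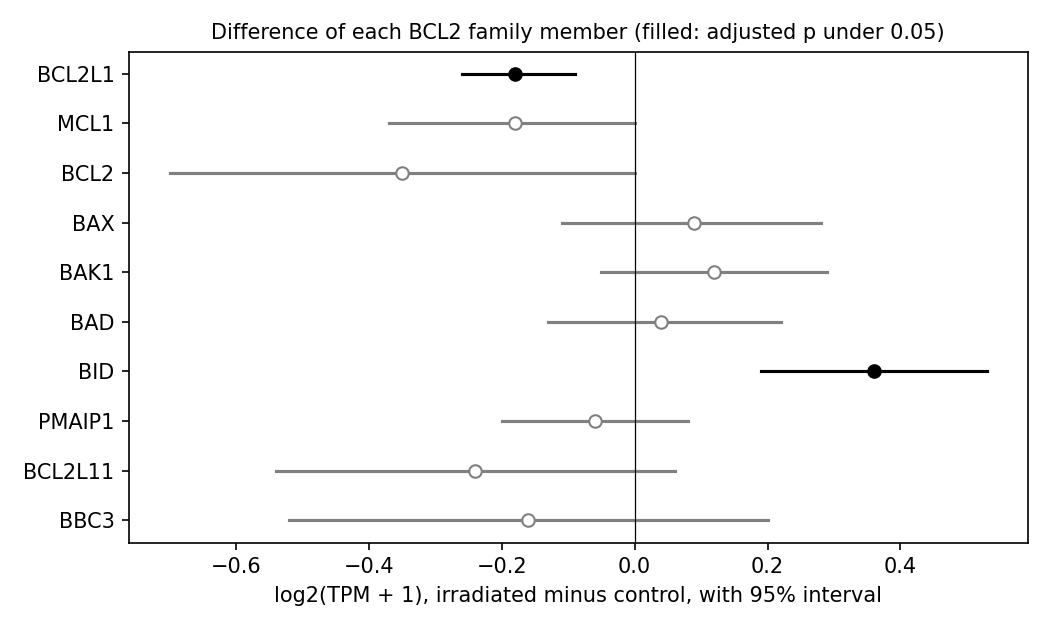
Difference of each member on the log2(TPM + 1) scale, irradiated minus control, with its 95% interval from limma; filled points passed an adjusted p of 0.05. The intervals of BID (0.19 to 0.53) and BCL2L1 (-0.26 to -0.09) exclude 0, that of BCL2 ends just below 0 (unadjusted p = 0.0495) without passing the adjusted threshold, and those of the other members include it.

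Among the survival members, BCL2L1, whose long splice form BCL-XL protects cells by holding back BAX and BAK1, was the most abundant (chr20:31664452-31723989 in hg38, minus strand). It had 149, 154 and 152 TPM in irradiated replicates 1 to 3, against 173, 173 and 169 TPM in control replicates 1 to 3. Every irradiated value lay below every control value, and each group was tight, with a coefficient of variation of 1.74% in irradiated and 1.22% in control cells. The gene fell by 0.18 on the log2 scale (SE 0.04, limma adjusted p = 0.0290), a drop of its mean level by 11.5%. This call is small in size and was lost when any 1 library other than irradiated replicate 2 was left out (adjusted p = 0.0345 to 0.109 over the 6 such fits), with differences of -0.19 to -0.16. It was also lost without a filter (adjusted p = 0.0527) and without the mean-variance trend (adjusted p = 0.11).

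MCL1, a short-lived survival protein that binds BAK1 and NOXA (chr1:150574551-150579738, minus strand), had 93.5, 75.7 and 90.7 TPM in irradiated cells, against 97.7, 99.8 and 97.0 TPM in control cells. The irradiated values were all lower, yet spread more widely, with an SD of 9.55 TPM in irradiated and 1.46 TPM in control cells (n = 3 each), and replicate 2 was the lowest. The difference was -0.18 (SE 0.08, limma adjusted p = 0.18), with a 95% interval of the fold from 0.774 to 1.00. Without irradiated replicate 2 it was -0.09 (adjusted p = 0.18). BCL2 itself (chr18:63123346-63320128, minus strand) had 1.84, 1.20 and 1.40 TPM in irradiated cells, against 2.12, 2.39 and 1.95 TPM in control cells. All irradiated values were again below the controls, at levels near the filter. Its difference was the largest in size among the survival members, -0.35 (SE 0.15), but it did not pass (limma adjusted p = 0.177, interval of the fold 0.614 to 0.999), and it was -0.53 (adjusted p = 0.192) with a pseudocount of 0.1.

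Neither effector passed the test. BAX, which moves from the cytosol into the mitochondrial membrane when activated (chr19:48954815-48961798, plus strand), had 111, 114 and 119 TPM in irradiated cells, against 96.5, 107 and 122 TPM in control cells. The irradiated range lay inside the control range. Its difference was 0.09 (SE 0.08, limma adjusted p = 0.534), and the interval of the fold ran from 0.929 to 1.21. It was 0.01 without control replicate 1, 0.17 without control replicate 3 (adjusted p = 0.169) and -0.02 after correction for GC content and length. BAK1, which resides in the mitochondrial membrane (chr6:33572547-33580293, minus strand), had 24.3, 25.5 and 26.5 TPM in irradiated cells, against 21.7, 24.1 and 24.2 TPM in control cells. The groups were separated by a narrow margin, and the difference of 0.12 (SE 0.07) did not pass (limma adjusted p = 0.313, interval of the fold 0.969 to 1.22). It was 0.07 without control replicate 1 and 0.04 after correction for GC content and length.

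Of the BH3-only members, BID, which death receptor signalling activates through cleavage by caspase-8, was the one that rose (chr22:17734138-17774770, minus strand). It had 38.0, 43.8 and 39.2 TPM in irradiated cells, against 29.6, 33.0 and 30.9 TPM in control cells. Every irradiated value exceeded every control value, and replicate 2 was the highest in each group. The mean was 40.3 ± 3.07 TPM in irradiated cells and 31.2 ± 1.69 TPM in control cells (SD, n = 3 each), a rise of 29.3%. The difference was 0.36 (SE 0.07, limma adjusted p = 0.0266). The call was kept without irradiated replicate 1 or 2, was lost without any 1 of the other 4 libraries (adjusted p = 0.0392 to 0.0913 over the 6 fits) and after median-ratio scaling (0.33, adjusted p = 0.0563), and the difference stayed between 0.30 and 0.40. It was also lost without a filter (adjusted p = 0.0706) and without the mean-variance trend (adjusted p = 0.0543).

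BAD, which binds BCL-XL and is held inactive by phosphorylation and 14-3-3 proteins, was the most abundant BH3-only transcript (chr11:64269830-64284704, minus strand). It had 135, 162 and 147 TPM in irradiated cells, against 136, 143 and 152 TPM in control cells. The ranges overlapped and the difference was 0.04 (SE 0.07, limma adjusted p = 0.742, interval of the fold 0.914 to 1.16). Its sign turned without irradiated replicate 2 (-0.02) and after correction for GC content and length (-0.06), and it was 0.11 without irradiated replicate 1. PMAIP1, which encodes NOXA, a partner of MCL1 (chr18:59899948-59904306, plus strand), had 31.8, 30.5 and 33.7 TPM in irradiated cells, against 34.5, 33.2 and 32.5 TPM in control cells. The ranges overlapped, with a difference of -0.06 (SE 0.06, limma adjusted p = 0.551) and an interval of the fold from 0.868 to 1.06. It was -0.03 without irradiated replicate 2 and -0.10 without irradiated replicate 3.

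BBC3, which encodes PUMA, a BH3-only protein that binds all survival members (chr19:47220822-47232766, minus strand), had 3.04, 2.59 and 2.42 TPM in irradiated cells, against 3.68, 3.29 and 2.45 TPM in control cells. The groups overlapped at control replicate 3, and the difference was -0.16 (SE 0.15, limma adjusted p = 0.540, interval of the fold 0.697 to 1.15). It was -0.07 without control replicate 1 and -0.29 without control replicate 3. BCL2L11, which encodes BIM, a BH3-only protein that responds to loss of growth factor signalling (chr2:111119378-111168447, plus strand), had 4.01, 3.07 and 4.18 TPM in irradiated cells, against 4.64, 4.52 and 4.61 TPM in control cells. All irradiated values were below the tight control values, with replicate 2 the lowest. The difference was -0.24 (SE 0.13, limma adjusted p = 0.265), and -0.13 (adjusted p = 0.385) without irradiated replicate 2.

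Among the irradiated libraries, replicate 2 held the lowest value of MCL1, BCL2, BCL2L11 and PMAIP1 and the highest of BCL2L1, BID and BAD. The longest annotated transcripts are 3932 bases for MCL1, 7461 for BCL2, 5231 for BCL2L11 and 1948 for PMAIP1, against 2610 for BCL2L1, 2495 for BID and 1157 for BAD. PMAIP1 therefore breaks the order of lengths that the rest of these follow. The part of that library's low values for long transcripts in these differences was not tested beyond the fits without that library and the correction for GC content and length. After that correction MCL1, BCL2, BCL2L11, BID and BCL2L1 stood at -0.14, -0.29, -0.19, 0.35 and -0.24, with BID and BCL2L1 called (limma adjusted p = 0.0265 and 0.0157).

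Summed by class, survival transcripts took a smaller part of the family after irradiation. Their summed level was 244, 231 and 244 TPM in irradiated libraries, against 273, 275 and 268 TPM in control libraries. Effector transcripts summed to 135, 140 and 145 TPM in irradiated libraries, against 118, 131 and 146 TPM in control libraries. BH3-only transcripts summed to 212, 242 and 227 TPM in irradiated libraries, against 208, 217 and 222 TPM in control libraries. The survival sums did not overlap between groups while the others did, and the total of the family was 607 ± 13.7 TPM in irradiated and 619 ± 18.9 TPM in control libraries (SD, n = 3 each). As a share of the family, survival transcripts made up 37.7% to 41.3% in irradiated libraries and 42.2% to 45.5% in control libraries. The BH3-only share was 35.8% to 39.5% in irradiated libraries and 34.7% to 34.9% in control libraries, also without overlap, and the effector shares overlapped. The shares add up to a fixed total, and a lower survival share by itself raises the others. Genes of the wider family, given below, are outside these sums. These sums and the ratios below describe members chosen with earlier results known and carry no test; BCL2L1, BAD and BAX dominate the sums.

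A ratio of 2 genes within a library does not depend on how libraries are scaled to each other. BID per BCL2L1 was 0.255, 0.284 and 0.258 in irradiated libraries, against 0.171, 0.191 and 0.183 in control libraries, which combines both called members. BAD per BCL2L1 was 0.907, 1.05 and 0.969 in irradiated libraries, against 0.785, 0.828 and 0.897 in control libraries. BAX per BCL2L1 was 0.742, 0.741 and 0.781 in irradiated libraries, against 0.558, 0.619 and 0.718 in control libraries. These 3 ratios did not overlap between the groups, although BAD and BAX alone did. All 3 have BCL2L1, which was called lower, as denominator, and so they partly repeat that call. How often ratios of other gene pairs separate was not tested. BAK1 per MCL1 was likewise separated, at 0.260 to 0.337 in irradiated and 0.222 to 0.25 in control libraries. That had to follow, because BAK1 alone lay higher and MCL1 alone lower without overlap, and neither gene passed the test. The highest value of this ratio came from irradiated replicate 2. NOXA per MCL1 overlapped, with 0.340, 0.403 and 0.371 in irradiated libraries, against 0.353, 0.333 and 0.335 in control libraries. BIM per MCL1 overlapped too, at 0.0405 to 0.0461 in irradiated and 0.0453 to 0.0475 in control libraries. So did BAX per BCL2, at 60.1 to 95.3 in irradiated and 44.8 to 62.3 in control libraries.

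**Figure D3:**
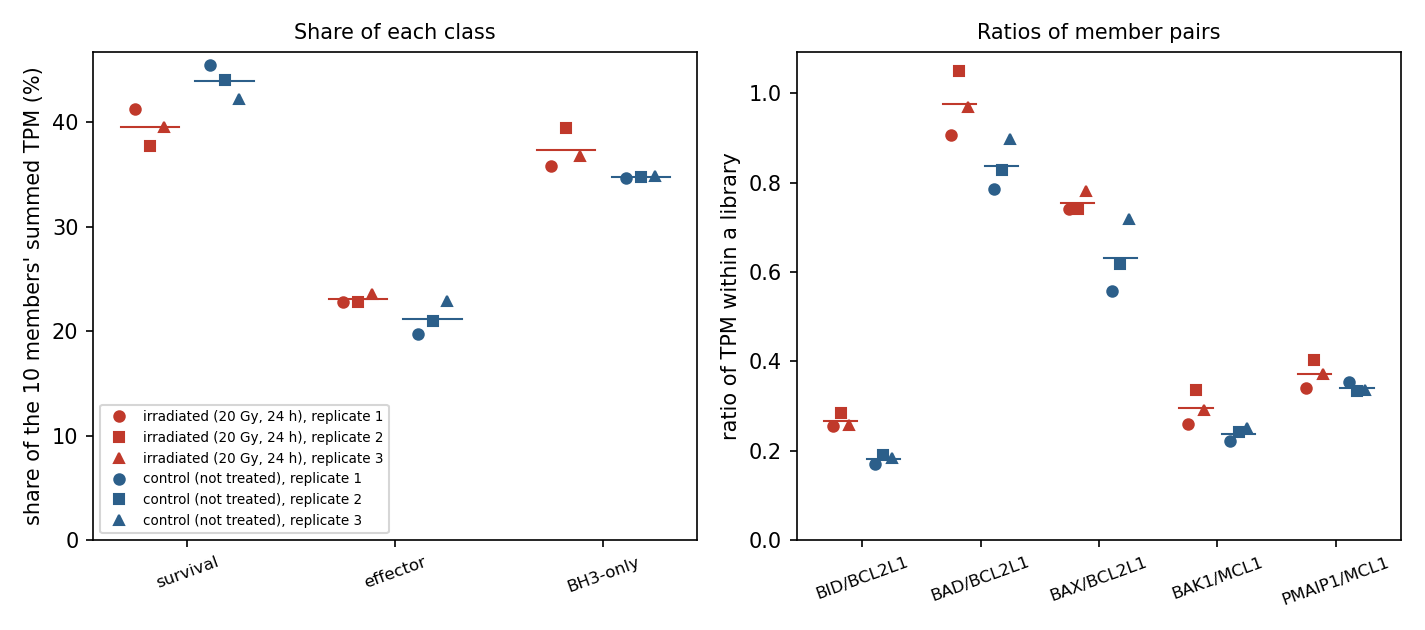
Left, share of the 10 members' summed TPM held by each class (%) in every library; right, ratios of TPM of member pairs within a library, with irradiated libraries left of control libraries, symbols for replicates and lines for group means. The survival share is 37.7% to 41.3% in irradiated and 42.2% to 45.5% in control libraries, and BID per BCL2L1 is 0.255 to 0.284 in irradiated and 0.171 to 0.191 in control libraries.

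Genes of the wider BCL2 family were read beside the 10 members. Of 11 listed, 4 were tested, with a median difference of 0.10. By limma 0 were called (10.6% of all tested rows) and 0 had an unadjusted p under 0.05 (28.0% of all tested rows). BCL2L12 had 127 ± 10.3 TPM in irradiated and 120 ± 10.2 TPM in control cells, and BCL2L13, an outer membrane protein with a BCL2-like fold, had 33.1 ± 2.18 TPM in irradiated and 30.5 ± 0.976 TPM in control cells (SD, n = 3 each; limma adjusted p = 0.539 and 0.315). The remaining tested genes, BCL2L2 and BOK, were added after their values were seen. BCL2L2 had 20.9, 20.6 and 22.2 TPM in irradiated cells, against 19.4, 19.5 and 18.9 TPM in control cells, without overlap. BOK had 17.5 ± 0.754 TPM in irradiated and 16.6 ± 0.757 TPM in control cells (SD, n = 3 each). Their differences of 0.13 and 0.07 did not pass (limma adjusted p = 0.223 and 0.586). The other listed genes were under the filter. Among these, the survival gene BCL2A1 and the BH3-only gene BIK were picked out after their values were seen. BCL2A1 had 0.92, 0.73 and 0.99 TPM in irradiated cells, against 0.45, 0.16 and 0.37 TPM in control cells, and BIK had 1.28, 0.95 and 0.98 TPM in irradiated cells, against 0.50, 0.37 and 0.66 TPM in control cells. Both were separated at very low levels and did not pass in the fit without a filter (limma adjusted p = 0.125 and 0.184).

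The partners of the family were read from 9 further lists with 84 genes, of which 81 were tested. Over these and the 4 tested family genes above, 2 of 85 were called higher and 9 lower, with a median difference of -0.05. Of all tested rows 10.6% were called, 6.53% higher and 4.07% lower, a balance that turned under median-ratio scaling as given above, and with lists of 4 to 17 tested genes nothing is read from a list's count against these shares. In the death receptor route that leads to BID, 1 of 10 tested genes rose and 0 fell, near the 10.6% called of all tested rows, with a median of 0.12. This was TRADD, the adaptor of TNF receptor 1, at 20.0 ± 0.0551 TPM in irradiated and 14.1 ± 1.43 TPM in control cells (SD, n = 3 each; difference 0.48, SE 0.09, limma adjusted p = 0.0184), called in 2 of 6 fits with 1 library left out. CASP8, the protease that cleaves BID, was picked out after its values were seen. It had 41.9, 39.2 and 38.3 TPM in irradiated cells, against 38.5, 32.9 and 32.2 TPM in control cells. It did not pass (difference 0.20, SE 0.08, limma adjusted p = 0.151). CASP10 and CFLAR, picked out likewise, had differences of 0.35 and 0.23 and did not pass (limma adjusted p = 0.108 and 0.171). In the same list FAS and FADD had differences of 0.23 and 0.03 and did not pass (limma adjusted p = 0.18 and 0.766). The values of FAS did not overlap, at 8.89 to 10.49 TPM in irradiated and 7.48 to 8.4 TPM in control libraries. TNFRSF10A, TNFRSF10B, TNFRSF1A and RIPK1 had differences of -0.07 to -0.03, also not called.

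Of 17 genes that phosphorylate or sequester BH3-only proteins, 1 rose and 2 fell (6.53% and 4.07% of all tested rows), with a median of -0.12. DYNLL1, a dynein light chain that binds BIM, had 801, 856 and 827 TPM in irradiated cells, against 678, 678 and 670 TPM in control cells. It rose by 0.29 (SE 0.04, limma adjusted p = 0.00705) and was called in all 17 alternatives. YWHAE, a 14-3-3 gene whose product can hold phosphorylated BAD, had 495, 488 and 492 TPM in irradiated cells, against 620, 593 and 586 TPM in control cells. It fell by 0.29 (SE 0.04, limma adjusted p = 0.00705), also in all 17. YWHAH, another 14-3-3 gene, fell by 0.23 (SE 0.04, limma adjusted p = 0.0229), with 2 of 6 fits with a library left out calling it. The other 4 listed 14-3-3 genes had differences of -0.17 to -0.06 and did not pass.

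Downstream of the pores, 0 of 9 tested genes of the apoptosome and cytochrome c release were called by limma (10.6% of all tested rows). Their median was -0.01, and 1 had an unadjusted p under 0.05, against 28.0% of all tested rows. CYCS, which encodes cytochrome c, had 136 ± 15.1 TPM in irradiated and 141 ± 10.5 TPM in control cells, and DIABLO, an antagonist of the inhibitors of apoptosis, had 69.6 ± 3.17 TPM in irradiated and 71.1 ± 4.01 TPM in control cells (SD, n = 3 each). Of 5 inhibitor of apoptosis genes, 1 fell (4.07% of all tested rows). This was BIRC5, which encodes survivin, a protein with a main role in cell division (difference -0.19, SE 0.05, limma adjusted p = 0.0401). That call was lost with any 1 library left out. In the outer membrane list, 2 of 10 genes fell (4.07% of all tested rows), with a median of -0.04. PGAM5, a mitochondrial phosphatase that binds BCL-XL, had 26.1, 28.8 and 28.2 TPM in irradiated cells, against 38.5, 41.3 and 39.8 TPM in control cells, and fell by 0.51 (SE 0.06, limma adjusted p = 0.00668) in this fit and in all 17 alternatives. VDAC1, a channel of that membrane, fell by 0.16 (SE 0.04, limma adjusted p = 0.0335), a call made in 0 of 6 fits without a library. VDAC2, which holds BAK1 in the membrane, had 264 ± 5.49 TPM in irradiated and 265 ± 10.1 TPM in control cells (SD, n = 3 each), and was named after its values were seen.

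In the BNIP3 group, 1 of 5 genes fell (4.07% of all tested rows). This was BNIP3, a hypoxia-induced mitophagy receptor, with 99.4, 90.0 and 90.1 TPM in irradiated cells, against 131, 128 and 114 TPM in control cells (difference -0.41, SE 0.07, limma adjusted p = 0.0151), called in 3 of 6 fits with a library left out. Of 9 tested genes of MCL1 and NOXA turnover, 0 were called by limma (10.6% of all tested rows), with a median of 0.05. At an unadjusted p under 0.05 there was 1, against 28.0% of all tested rows. GSK3B, a kinase that marks MCL1 for destruction, had 131 TPM in irradiated replicate 1, 43.3 and 35.8 TPM in irradiated replicates 2 and 3, and 24.6 to 44.9 TPM in control cells. Its mean in irradiated cells rests largely on that 1 library, and in control cells its mean of 32.8 TPM lay below that of MARCHF5. MARCHF5, a mitochondrial ubiquitin ligase, had 36.1 ± 0.959 TPM in irradiated and 34.9 ± 1.73 TPM in control cells (SD, n = 3 each).

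Transcription factors that act on BH3-only genes were lower in 2 of 8 tested cases (4.07% of all tested rows), with a median of -0.08. ATF4, which drives PMAIP1 and BBC3 under stress, had 304, 308 and 305 TPM in irradiated cells, against 400, 411 and 393 TPM in control cells, and fell by 0.39 (SE 0.03, limma adjusted p = 0.00309) in this fit and in all 17 alternatives. E2F1, a cell cycle factor, fell by 0.35 (SE 0.06, limma adjusted p = 0.0154) and was called in 3 of 6 fits with a library left out. Among 8 factors that act on survival members, 1 fell (4.07% of all tested rows), with a median of -0.11. This was RELA, an NF-kB subunit that can activate BCL2L1, at 59.5 ± 2.23 TPM in irradiated and 75.0 ± 8.07 TPM in control cells (SD, n = 3 each; difference -0.32, SE 0.08, limma adjusted p = 0.0474), and the call held in 6 of 17 alternatives.

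**Figure D4:**
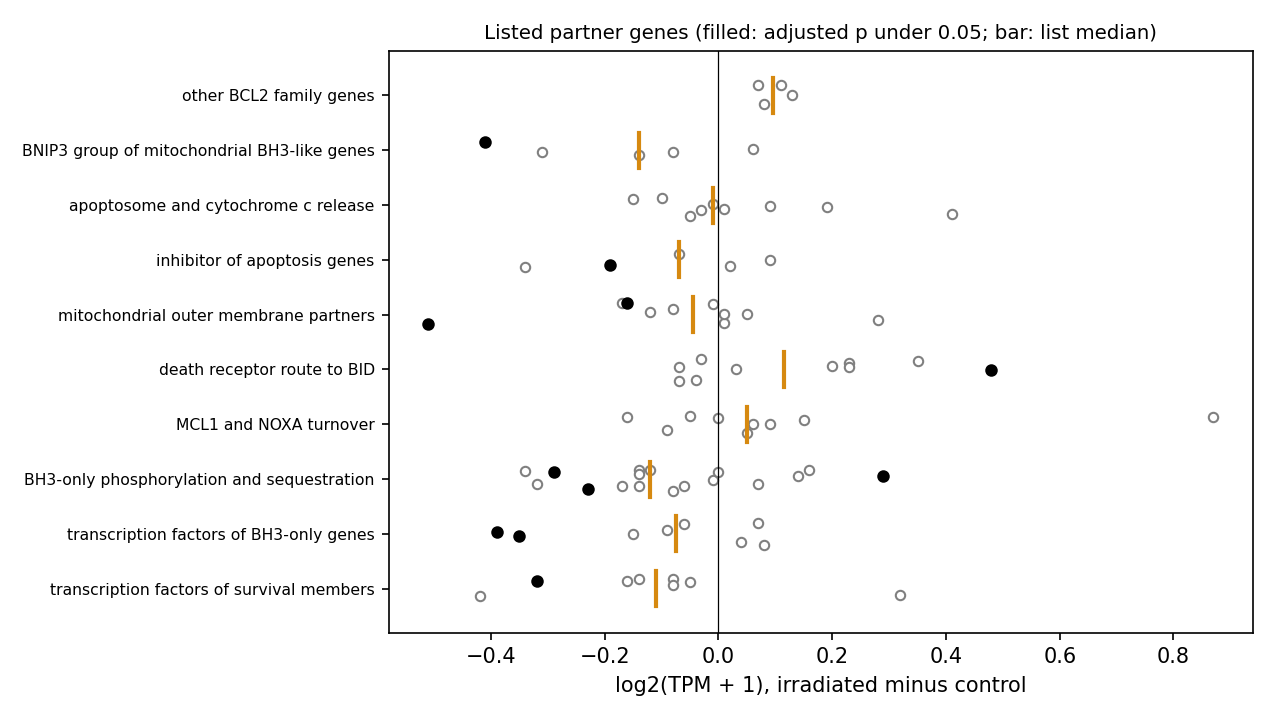
Difference of every tested gene of the 10 lists, irradiated minus control on the log2(TPM + 1) scale; filled points passed an adjusted p of 0.05 and bars mark list medians. The 11 called genes lie between -0.51 (PGAM5) and 0.48 (TRADD), and the list medians between -0.14 and 0.12.

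By annotation, 8 of the 10 members overlap another gene, and whether counting used strand is unknown, so reads that overlapping genes share cannot be told apart. For most the overlapping gene was nearly silent, at 0.68 TPM or less in every library. The exceptions were BAD, which overlaps GPR137 on the opposite strand, and BCL2L11, which overlaps the long non-coding RNA gene MIR4435-2HG on the opposite strand. GPR137 had 39.8 to 45.2 TPM in irradiated and 33.6 to 41.0 TPM in control libraries. MIR4435-2HG had 123, 123 and 124 TPM in irradiated libraries, against 110, 116 and 120 TPM in control libraries, far above the level of BCL2L11. Its part in the BCL2L11 values was not tested.

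The genes whose profile over the 6 libraries lay closest to a called member were sought among 10067 genes with a mean of at least 5 TPM, by the mean absolute difference of deviations from each gene's own mean on the log2(TPM + 1) scale. For BCL2L1 these were EIF1 (0.00652), PTTG1IP (0.0138) and PES1 (0.0167). For BID they were CLDN7 (0.0241), OCEL1 (0.0290) and CCDC88B (0.0303). EIF1, the closest of all, had 657, 688 and 678 TPM in irradiated libraries, against 774, 776 and 752 TPM in control libraries. With 6 libraries and so many genes compared, such closeness is a description only.

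**Figure D5:**
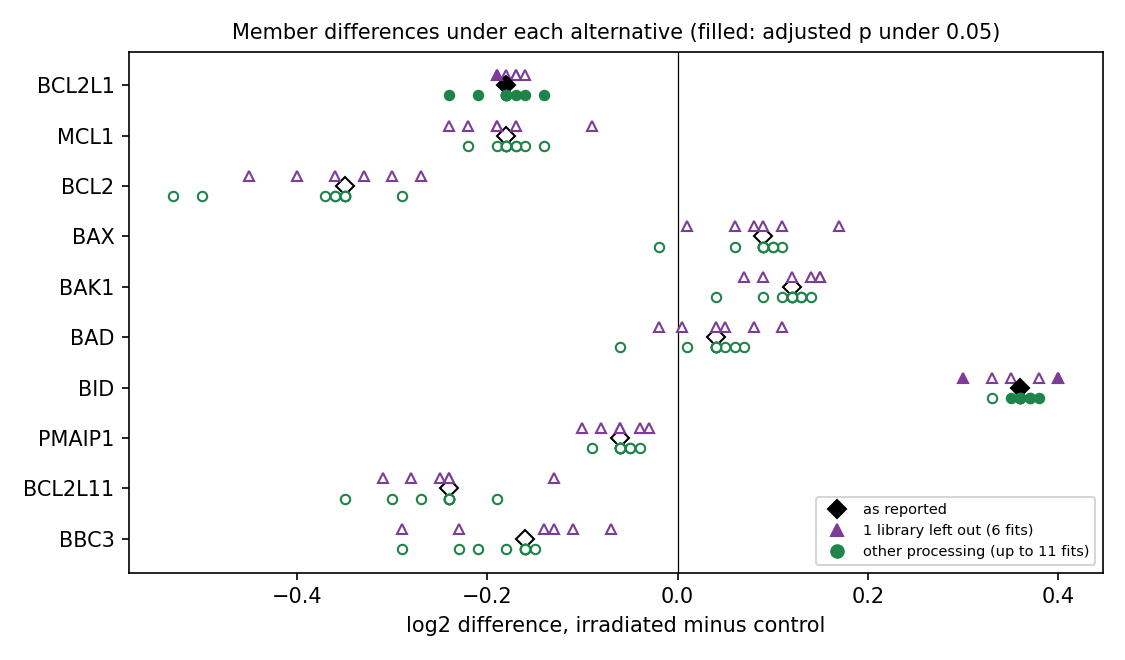
Difference of each member, irradiated minus control on the log2 scale, as reported (diamond), with 1 library left out (triangles) and under other processing (circles); filled symbols passed an adjusted p of 0.05 and are drawn over open ones of equal value. BID stays between 0.30 and 0.40 and BCL2L1 between -0.24 and -0.14 in all 17 alternatives, with 9 of 17 calling each.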

How the data were processed

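Gene values are the TPM that the authors deposited in a single table, given to 2 decimals with a column for each sample. The submitters' processing notes list RSEM, StringTie and HISAT2 as tools, with hg38 as the build and no version or role. Because TPM is a share of a library, more of one transcript means less of the rest. Per the labels' protocols, a TruSeq RNA kit was used on total RNA; strand is not given in the sources used here.

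Groups came from the labels. Rows that reached 1 TPM in 3 or more of the 6 samples were fitted on log2(TPM + 1) in limma 3.58.1 (R 4.3.3) by two-sided moderated tests with a trended prior (3.39 prior and 4 residual degrees of freedom) and Benjamini-Hochberg adjustment. Exact permutation tests used all 20 assignments. The pipeline was also run on simulated data, whose outcome is not given here. The smallest effect simulated was larger than the difference of BCL2L1. Coordinates, lengths and coding sequences came from GENCODE 29, on the assembly hg38 names; GC content and length were known for 97.4% of tested rows. Members, lists and tests were chosen with earlier results of these data known. Named in each list were the called genes with the largest differences, up to 4, or else the 2 most abundant. Any other gene given from a list was picked after its values were seen, also where its sentence does not say so. Some genes are not reported here. Fits under other settings are in the closing section.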

Additional observations from a re-analysis of the deposited data

How the results depend on the processing

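Of the 10 members, 8 kept their direction in each alternative run. BAX turned to -0.02 and BAD to -0.06 after correction for GC content and length, and BAD ranged from -0.02 (without irradiated replicate 2) to 0.11 with 1 library left out; neither was called in any fit. The 2 member calls became 1 under median-ratio scaling, and 0 without a filter, with eBayes without trend and with the replicate block, where limma gave 2, 3 and 2 members an unadjusted p under 0.05; they ranged from 0 to 2 with 1 library left out. They stayed at 2 with a pseudocount of 0.1, a filter of 5 TPM (BCL2, BBC3 and BCL2L11 not tested), quantile normalization, mitochondrially encoded genes removed, protein-coding genes only, GC and length correction and robust eBayes. Over all genes the 1550 calls became 497 without a filter, 993 with eBayes without trend and 306 to 1390 with 1 library left out. Same-numbered samples deviated from their group means with correlations of 0.03, -0.06 and -0.03. These values show no shared deviation over all tested genes, but cannot settle whether the samples were paired. With the replicate block 362 genes were called. Fits with fewer libraries or the block have fewer residual degrees of freedom; for the other settings the cause was not tested. The 11 called partner genes kept their direction in all 17 alternatives, with PGAM5, YWHAE, DYNLL1 and ATF4 called in each and the others in 6 to 13. Over the rescalings and left-out libraries, the log2 ratio of group means ran from -0.21 to -0.15 for the summed survival level, 0.02 to 0.17 for the effectors and 0.02 to 0.12 for the BH3-only members.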
